A study of Mus musculus with 48 samples.

Results

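The 30 genes described here carry out or control the synthesis of cholesterol and fatty acids. They were taken from a table of 55487 genes by gene symbol, with no threshold on a measured value, and every one of the 30 was found. The list itself was chosen with earlier results of these data known. By role they were 7 genes of the mevalonate pathway, 11 genes that make squalene and turn it into cholesterol, 6 regulators or sterol carriers and 6 genes of fatty acid synthesis. The cells were Ba/F3, a mouse line described as pro-B that grows only with interleukin 3, and the mutants were clones edited with CRISPR-Cas9. Beside WT there were 4 genotypes that lack 1 or both copies of a large-subunit gene, written Rpl5+/-, Rpl11+/-, Rpl22+/- and Rpl22-/-. Another 3 carried a point mutation: R98S in Rpl10, of the large subunit, and P131S or H137Y in Rps15, of the small subunit. The characteristics place each of these mutations on both alleles, although the RNA-seq titles of Rps15 P131S name it once. The culture was the same for all 8, with 10% serum and interleukin 3 at 1 ng/ml, and so was a treatment with cycloheximide, which halts ribosomes on the transcript, at 0.1 mg/ml for 1 min. Each genotype had 3 clones of this single line, and each clone gave an RNA-seq library and a ribosome footprint library, so that p-values measure the spread between clones of 1 line. Footprints are the pieces of transcript, here 28 to 30 nt long, left under a ribosome after nuclease digestion, and their count follows both the amount of the messenger RNA and how much it is translated. The question was which messenger RNAs change in level and which change in translation when a ribosomal protein is mutated or reduced.

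Cells make cholesterol from acetyl-CoA through mevalonate, isoprenoids, squalene and a series of sterols. The genes of this route are under the control of the transcription factor SREBP2, encoded by Srebf2, and those of fatty acid synthesis are controlled by SREBP1, encoded by Srebf1. Both factors are held in the endoplasmic reticulum with the escort protein SCAP by the INSIG proteins when sterols are plentiful, and reach the nucleus after cleavage in the Golgi when sterols are low. In growing blood cells the products serve for new membranes and for lipid groups attached to proteins. The culture medium held serum, which carries lipoproteins.

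Values are CPM, the counts of a gene relative to the scaled size of its library, and clones are given in the order 1, 2, 3 for WT, 20, 24, 63 for Rps15 P131S, 16, 2, 6 for Rps15 H137Y, 68, 76, 80 for Rpl5+/-, 22, 406, 414 for Rpl11+/-, 13, 16, 60 for Rpl22+/-, 30, 649, 776 for Rpl22-/- and A29, A30, A34 for Rpl10 R98S. A change is a log2 fold change with its standard error (SE) from edgeR, and a p-value is adjusted by Benjamini-Hochberg over all genes tested. CPM are not divided by gene length, so levels are compared between samples and not between genes. Libraries held 13029073 to 38258559 estimated counts in RNA and 15598994 to 72044439 in footprints. Rpl5 and Rpl11 RNA was below the WT range in all 3 clones of their own heterozygous genotype, and so was Rpl22 RNA in both Rpl22 genotypes. Rps15 RNA was uneven between mutant clones, at 1935, 907 and 1825 CPM in Rps15 P131S and 1829, 875 and 817 in Rps15 H137Y. In WT it was 1433 to 1455 CPM. Rps15 footprints were 693, 243 and 425 CPM in P131S and 459, 258 and 262 in H137Y, against 396 to 595 in WT. The part of the Rps15 level in the results below was not tested. The library labelled Rpl22-/- clone 30 had Rpl22 footprints at 1545 CPM, inside the range of the Rpl22+/- clones (1429 to 1596), against 274 and 317 in the other Rpl22-/- clones. The interleukin 3 receptor genes Il3ra and Csf2rb and the leukocyte gene Ptprc were present in every library, at lowest levels of 25.6, 450 and 167 CPM. With Csf2rb2, Cd79a and Cd79b they made up the 6 of 14 genes listed for Ba/F3 that passed 1 CPM in some library. Of the B lineage genes on that list Cd79b ran from 3.34 to 9.91 CPM and Cd79a from 0 to 9.81, while Pax5, Ebf1, Igll1 and Rag1 stayed below 0.12, and the progenitor gene Kit was at 0. Of 8 genes of neutrophil and monocyte precursors, 7 passed 1 CPM in some library and Elane did not. Their summed RNA ran from 44.8 to 197 CPM in WT, from 592 to 3574 in Rps15 P131S and from 645 to 4170 in Rps15 H137Y, and the highest clone of the other mutants was at 507. The 4 basophil and mast cell genes summed to 15.9 to 46.3 CPM in WT, 98.6 to 277 in P131S and 27.3 to 122 in H137Y, and the 3 erythroid genes to 92.6 to 115, 58.3 to 85.7 and 123 to 328. The 14 genes listed for Ba/F3 summed to 1144 to 1276 CPM in WT, 2492 to 3136 in P131S and 1615 to 2712 in H137Y. The part of these lists in the results for the Rps15 mutants was not tested, and in bulk RNA a change in the share of cells cannot be told apart from a change in RNA per cell.

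The promoters of 5 members are shown first. These genes moved in several genotypes, or at both levels, or their promoter holds the letters TCACNCCAC. Not every member that moved in this way is shown: Fasn, Acaca and Elovl6, called at both levels in both Rps15 mutants, are left out. The windows of Acaca and Elovl6 held none of the letters searched for, and that of Fasn held CCAAT only. Each sequence is the 250 bases before the gene start in the RefSeq annotation of GRCm38.p6, read 5′ to 3′ on the strand of the gene. Capitals mark matches on either strand to TCACNCCAC, the letters searched for as the sterol regulatory element, CCAAT, the box bound by NF-Y, GGGCGG, the GC box, or CACGTG, the E-box. Other forms of the sterol regulatory element were not searched for, so a window without TCACNCCAC may still hold one. CCAAT appears as ATTGG and GGGCGG as CCGCCC where the match is on the other strand, and CACGTG reads the same on both.
Insig1, chr5:28071162-28071411, plus strand: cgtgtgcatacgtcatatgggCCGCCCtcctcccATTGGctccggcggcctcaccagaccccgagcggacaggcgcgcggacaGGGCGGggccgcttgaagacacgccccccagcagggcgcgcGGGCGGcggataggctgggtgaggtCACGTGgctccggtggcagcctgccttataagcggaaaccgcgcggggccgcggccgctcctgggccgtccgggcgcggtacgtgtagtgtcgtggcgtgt
Idi1, chr13:8885356-8885605, plus strand: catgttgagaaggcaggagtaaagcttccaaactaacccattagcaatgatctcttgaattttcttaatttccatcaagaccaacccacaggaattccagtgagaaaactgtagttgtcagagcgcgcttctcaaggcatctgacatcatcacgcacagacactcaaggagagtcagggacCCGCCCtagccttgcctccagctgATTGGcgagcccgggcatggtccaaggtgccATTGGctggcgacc
Hmgcs1, chr13:119690101-119690350, plus strand: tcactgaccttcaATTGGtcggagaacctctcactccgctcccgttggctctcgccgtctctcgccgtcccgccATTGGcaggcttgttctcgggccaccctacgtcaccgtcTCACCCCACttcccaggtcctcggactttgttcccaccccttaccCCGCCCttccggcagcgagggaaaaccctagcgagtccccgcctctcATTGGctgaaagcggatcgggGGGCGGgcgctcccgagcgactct
Ebp, chrX:8193513-8193762, minus strand: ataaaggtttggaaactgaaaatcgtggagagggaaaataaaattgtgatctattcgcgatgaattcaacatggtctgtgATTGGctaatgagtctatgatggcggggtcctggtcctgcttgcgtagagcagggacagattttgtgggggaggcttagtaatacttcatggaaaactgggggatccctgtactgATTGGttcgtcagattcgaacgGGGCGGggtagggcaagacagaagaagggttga
Nsdhl, chrX:72918271-72918520, plus strand: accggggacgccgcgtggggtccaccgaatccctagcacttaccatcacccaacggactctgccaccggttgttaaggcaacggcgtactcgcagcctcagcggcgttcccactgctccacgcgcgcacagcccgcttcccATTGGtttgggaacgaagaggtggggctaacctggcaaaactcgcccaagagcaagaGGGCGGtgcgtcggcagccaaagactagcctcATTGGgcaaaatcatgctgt
RefSeq windows of 300 bases, from 250 before to 50 after a start, were at hand for 24 of the 30 members, and Fdps, Fdft1, Sqle, Stard4, Scd1 and Scd2 had none in the table. The letters TCACNCCAC occurred in 1 of the 24 genes, Hmgcs1, and in 1.44% of all 27025 genes with a window. CCAAT was found in 20 members (83.3%) and in 41.1% of all genes, and GGGCGG in 20 members (83.3%) and 38.2% of all genes. The members with a window but no CCAAT were Acat2, Scap, Acaca and Elovl6. Those with no GGGCGG were Pmvk, Fasn, Acaca and Elovl6. CACGTG was found in 5 members (20.8%), Hsd17b7, Sc5d, Dhcr7, Insig1 and Scap, and in 8.09% of all genes. The background holds every gene with a window, whether or not it is expressed in these cells, so expressed genes were not compared with each other. Matches can overlap, and they describe the letters of the window only.

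In RNA most calls were made in the Rps15 mutants, and most of those were upward. A call here is an adjusted p under 0.05 in edgeR's quasi-likelihood test over all genes, and 29 members could be tested in RNA, since Scd1 had almost no counts there. In Rps15 P131S 13 of 29 members rose, against 23.7% of all genes tested, and 2 fell, against 23.4%. In Rps15 H137Y 9 of 29 rose, against 21% of all genes, and 1 fell, against 20%. The median log2 change of the members was 0.17 in P131S and 0.19 in H137Y, beside -0.01 and 0.01 over all genes. Counted in both directions, 51.7% of the members tested were called in P131S and 34.5% in H137Y, beside 47% and 41% of all genes. The share of members called was thus near the background, and the split between higher and lower was not. Because the list was chosen with earlier results of these data known, this split describes the list and is not independent support for a change of the pathway. Both comparisons use the same 3 WT clones, and the same 6 mutant clones carried the raised neutrophil and monocyte sums given above. The members that rose in both were Idi1, Hsd17b7, Ebp, Insig1, Scap, Acly, Acaca, Fasn and Elovl6, and Insig2 fell in both.

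Fewer members moved in the large-subunit genotypes. In Rpl11+/- 1 member rose, against 5.73% of all genes, and 6 fell, against 6.06%. In Rpl22+/- 1 rose (1.08% of all genes) and 1 fell (2.82%), and in Rpl22-/- 1 rose (1.47%) and 2 fell (3.8%). In Rpl10 R98S 2 rose, against 6.81% of all genes, and 1 fell, against 6.03%. In Rpl5+/- edgeR called 0 members, where 0.624% of all genes were called higher and 0.414% lower. At an unadjusted p under 0.05 the Rpl5+/- count was 5, and it was 1 by DESeq2 and 0 by limma voom. Fitted with WT alone, without the other genotypes' estimate of spread, Rpl5+/- had 11 members called, 1 higher and 10 lower, where 1867 of 11815 genes were called. In the same kind of fit Rpl10 R98S had 10 members called, 9 higher and 1 lower, where 4218 of 11919 genes were called, so that its share of members was near that of all genes.

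**Figure D1:**
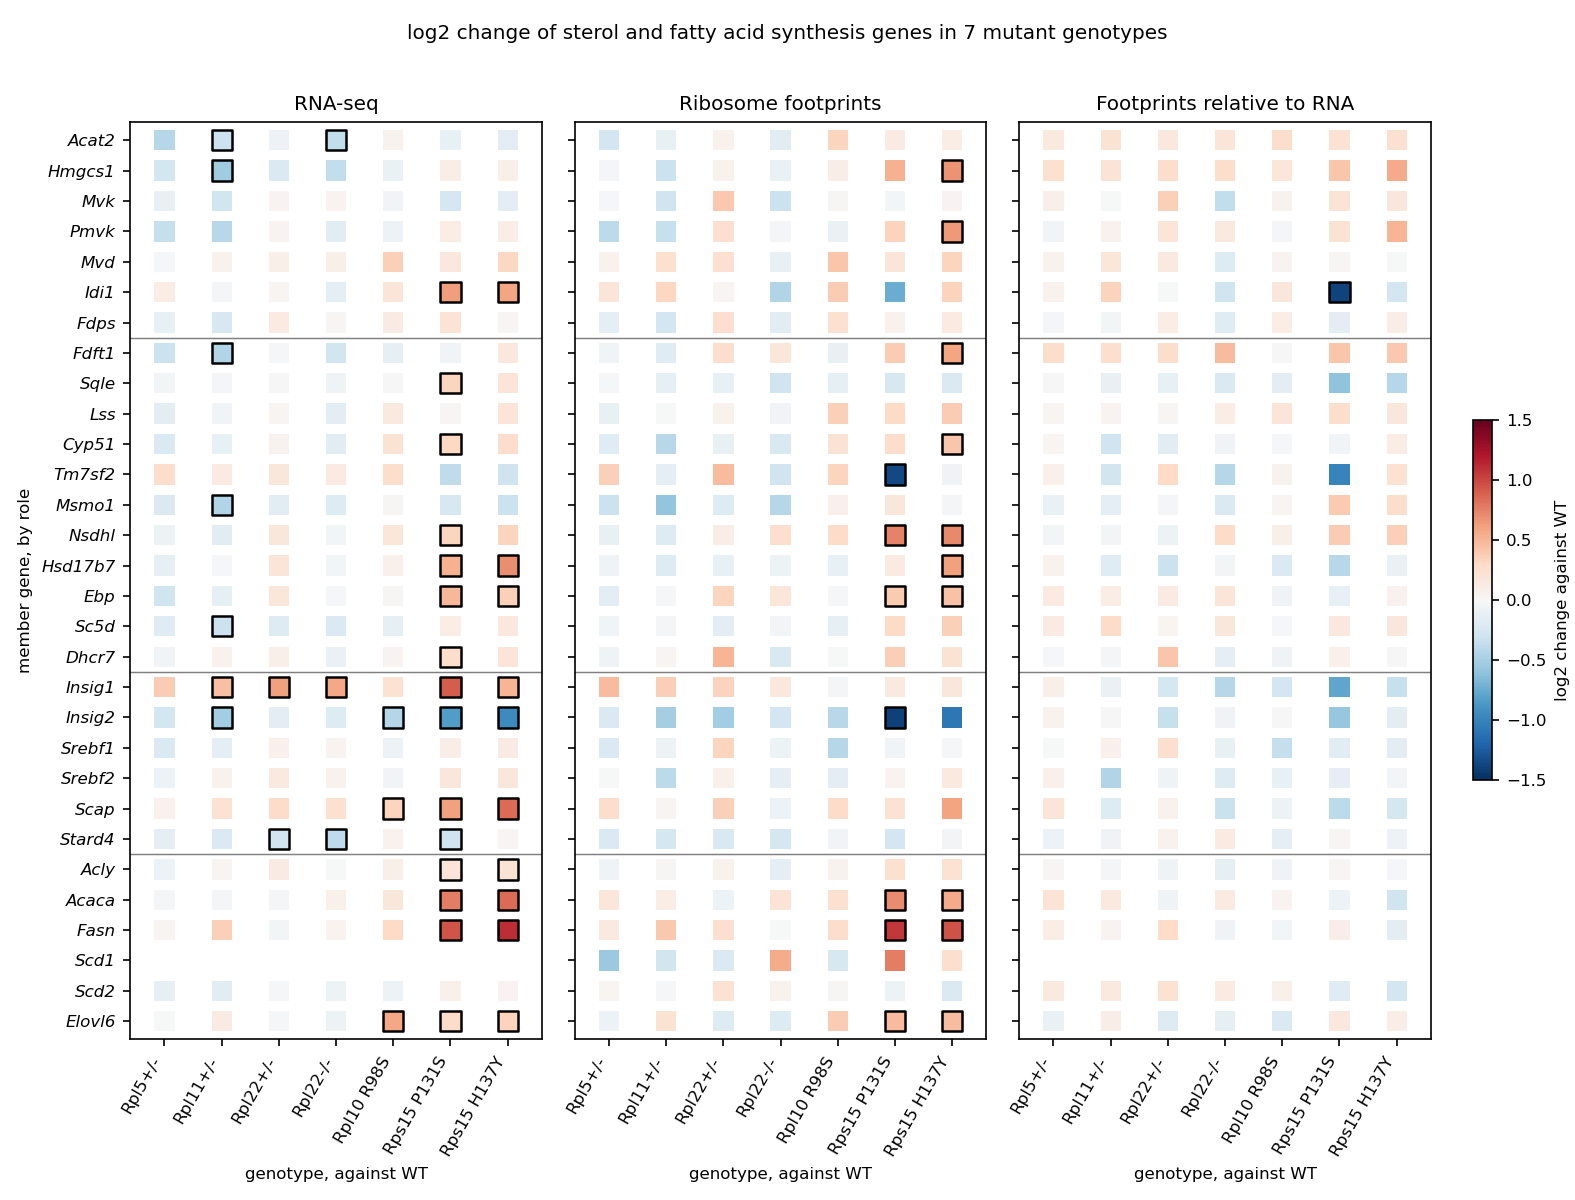
log2 change of each member (rows, by role) against WT in the 7 mutant genotypes (columns), for RNA, footprints and translational efficiency, as colour from blue (lower) to red (higher), with a black frame at an adjusted p under 0.05. In RNA the Rps15 columns hold 15 and 10 frames, and in footprints 7 and 10, while Idi1 in Rps15 P131S has the single frame in the panel of footprints relative to RNA. Scd1 is blank where it was not tested or has no meaningful ratio.

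Among the 6 fatty acid synthesis genes, 4 rose in RNA and 3 in footprints in each Rps15 mutant, and 0 fell. Scd1 was not tested in RNA. The median log2 change of those tested was 0.29 in P131S and 0.35 in H137Y in RNA, and 0.59 and 0.36 in footprints. Of all genes, 23.7% rose and 23.4% fell in P131S RNA, and 21% and 20% in H137Y RNA. In footprints these shares were 8.41% and 8.28% in P131S and 5.22% and 6.44% in H137Y. They are also the background for the counts of the other roles below. Fasn, the synthase that builds palmitate, lies at chr11:120805958-120825166 in GRCm38.p6. Fasn RNA was 161, 143 and 141 CPM in WT, 321, 243 and 292 in P131S and 321, 288 and 348 in H137Y. All 6 Rps15 mutant clones stood above all 3 WT clones, a 1.92-fold rise in P131S (log2 change 0.94 ± 0.13, adjusted p = 1.36e-05) and a 2.15-fold rise in H137Y (log2 change 1.10 ± 0.13, adjusted p = 3.15e-06). Fasn footprints were 444, 402 and 470.1 CPM in WT, 1109, 781 and 848 in P131S and 901, 839 and 819 in H137Y. The footprint groups did not overlap either, with log2 change 1.06 ± 0.17, adjusted p = 0.000381 in P131S and log2 change 0.96 ± 0.17, adjusted p = 0.00117 in H137Y. Fasn was not called by edgeR in the other genotypes, and its RNA in Rpl11+/- was spread from clone to clone, at 239, 189 and 143 CPM. It was called higher in Rpl11+/- RNA without clone 414 (adjusted p = 0.00406) and in Rpl10 R98S RNA when fitted with WT alone (0.00198).

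Acaca, acetyl-CoA carboxylase, makes the malonyl-CoA that the synthase consumes. It lies at chr11:84129635-84401651 and overlaps Tada2a and 2 other annotated genes, and its counts were fractional in most libraries, so some of its reads may be shared. Acaca RNA was 85.8, 87.2 and 81.9 CPM in WT, 152, 129.9 and 153 in P131S and 139, 138 and 182 in H137Y. The mutant clones were all above WT, with log2 change 0.77 ± 0.093, adjusted p = 1.71e-06 in P131S and log2 change 0.85 ± 0.093, adjusted p = 6.28e-07 in H137Y. Its footprints were 147, 151 and 127 CPM in WT, 232, 199.9 and 263 in P131S and 214, 236 and 179 in H137Y, again without overlap. The footprint rise was 0.71 ± 0.14 (adjusted p = 0.00132) in P131S and 0.56 ± 0.14 (adjusted p = 0.0104) in H137Y, and the H137Y call was lost without WT clone 3 or H137Y clone 2 (adjusted p up to 0.0558).

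Elovl6, which lengthens palmitate to stearate, rose in Rpl10 R98S as well as in the Rps15 mutants. Its RNA was 83.1, 86.1 and 86.5 CPM in WT and 135, 123 and 124 in Rpl10 R98S, where every clone was above every WT clone (log2 change 0.58 ± 0.084, adjusted p = 0.000173). In P131S it was 112, 100.2 and 101 CPM and in H137Y 100.4, 116 and 109 CPM, with changes of 0.29 ± 0.084 (adjusted p = 0.00749) and 0.35 ± 0.084 (adjusted p = 0.00228). Elovl6 footprint counts were fractional in 21 of 24 libraries. Elovl6 footprints were 38.5, 37.9 and 40.02 CPM in WT, 53.8, 60.8 and 46.97 in P131S and 48.99, 57.4 and 53.8 in H137Y. They also did not overlap with WT (0.47 ± 0.14, adjusted p = 0.0296 in P131S and 0.46 ± 0.15, adjusted p = 0.0437 in H137Y), but these 2 calls were each lost without any 1 of the WT clones and in other fits, and the adjusted p reached 0.119 and 0.174 over the alternatives.

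Acly, which makes cytosolic acetyl-CoA from citrate, rose by less. Its RNA was 246, 249 and 243 CPM in WT, 261, 293 and 294 in P131S and 274, 261 and 325 in H137Y. The clones stood above WT in both genotypes, with log2 change 0.20 ± 0.074, adjusted p = 0.0323 and log2 change 0.22 ± 0.074, adjusted p = 0.0212. Both calls were lost without WT clone 1 or 3, the P131S call also without WT clone 2 or P131S clone 24 or 63 and the H137Y call without its clone 6, with an adjusted p up to 0.105 and 0.154 over the alternatives. In footprints Acly was not called by edgeR, but it was in P131S by DESeq2 (adjusted p = 0.0474) and by edgeR without P131S clone 20 (0.0236).

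**Figure D2:**
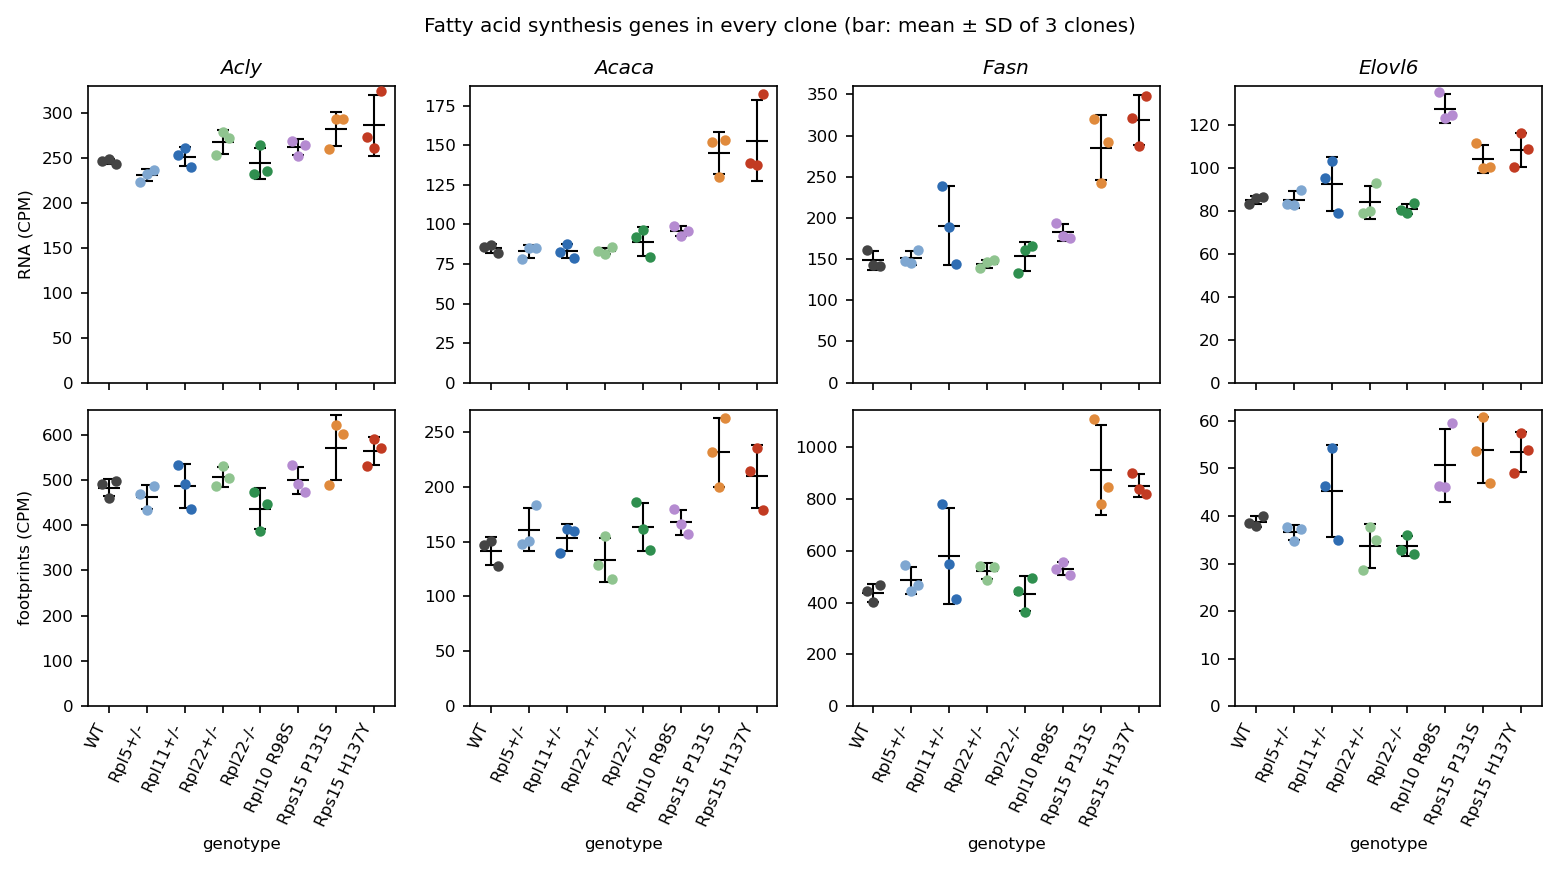
RNA (top) and footprints (bottom) of Acly, Acaca, Fasn and Elovl6 in CPM, each point 1 clone and each bar the mean ± SD of 3 clones, for the 8 genotypes. The Rps15 P131S and H137Y points of Fasn and Acaca lie above every WT point in both rows, and Rpl10 R98S holds the highest points of Elovl6 RNA.

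The desaturases Scd1 and Scd2, which place the double bond in stearate, were called neither by edgeR as fitted here nor in any alternative run. Scd2 RNA ranged from 925 to 1690 CPM over the 24 clones, with both ends in Rps15 mutant clones. It was 1197, 1361 and 1284 CPM in WT, 925, 1597 and 1536 in P131S and 1109, 1141 and 1690 in H137Y. The log2 changes of Scd2 ranged from -0.27 to 0.23 over the 24 combinations of comparison and level. Scd1 was at 0 to 0.137 CPM in RNA, while its footprint values were 15.4 to 124 CPM. Both desaturases had fractional footprint counts in all 24 footprint libraries, so footprints could not be assigned to one or the other with certainty, and a translational efficiency of Scd1 has no meaning here.

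Among the 11 genes of squalene and the sterol ring, 6 rose in RNA in P131S and 2, Hsd17b7 and Ebp, in H137Y. In footprints 2 rose and 1 fell in P131S and 5 rose in H137Y. The median log2 change was 0.28 and 0.20 in RNA and 0.29 and 0.39 in footprints. Hsd17b7, a sterol ketone reductase, had RNA at 21.7, 24.2 and 20.1 CPM in WT, 33.7, 30.01 and 31.5 in P131S and 34.9, 35.8 and 36.3 in H137Y. The groups did not overlap (log2 change 0.53 ± 0.10, adjusted p = 0.000223 in P131S, log2 change 0.69 ± 0.10, adjusted p = 1.62e-05 in H137Y). Hsd17b7 footprints were 49.1, 47.1 and 34.4 CPM in WT, 45.7, 38.6 and 58.6 in P131S and 60.8, 67.8 and 71.5 in H137Y. In footprints the H137Y clones were above WT (0.61 ± 0.15, adjusted p = 0.013) and the P131S clones overlapped with WT (0.13 ± 0.15, adjusted p = 0.646). The H137Y footprint call was lost without WT clone 3 and in the fit of the 2 genotypes alone, with an adjusted p up to 0.079.

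Ebp, the sterol isomerase, lies at chrX:8185329-8193512. Its RNA was 24.7, 28.5 and 26.8 CPM in WT, 38.8, 36.5 and 37.8 in P131S and 28.5, 32.5 and 41.3 in H137Y. P131S was wholly above WT (log2 change 0.50 ± 0.096, adjusted p = 0.000261), while the lowest H137Y clone was level with the highest WT clone (log2 change 0.35 ± 0.096, adjusted p = 0.00559), and the H137Y call was lost without its clone 6 (adjusted p up to 0.0825 over the alternatives). Ebp footprints were 43.8, 43.2 and 43.9 CPM in WT, 52.8, 61.8 and 57.7 in P131S and 60.9, 68.3 and 48.2 in H137Y. Every mutant clone was above WT, with 0.40 ± 0.12 (adjusted p = 0.0226) and 0.44 ± 0.12 (adjusted p = 0.0176), but both calls were lost without WT clone 1 or 2, among other clones, with an adjusted p up to 0.194 and 0.176.

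Nsdhl, which removes a methyl carbon from the sterol ring, rose at the footprint level in both mutants. Its footprints were 57.98, 47.998 and 43.6 CPM in WT, 78.4, 81.1 and 90.8 in P131S and 87.6, 88.2 and 69.6 in H137Y. No mutant clone fell into the WT range (log2 change 0.74 ± 0.20, adjusted p = 0.012 in P131S and log2 change 0.72 ± 0.20, adjusted p = 0.0211 in H137Y). The P131S call was lost without WT clone 3 or P131S clone 63 (adjusted p up to 0.0628) and the H137Y call without WT clone 2 or 3 or H137Y clone 16 or 2 (up to 0.0915). Nsdhl RNA was 27.3, 31.5 and 25.9 CPM in WT, 33.1, 36.2 and 37.8 in P131S and 31.2, 35.05 and 40.5 in H137Y. The RNA rise was called in P131S (0.34 ± 0.14, adjusted p = 0.0483) and was 0.33 ± 0.14 (adjusted p = 0.0576) in H137Y, where 1 clone lay inside the WT range. The P131S RNA call was lost without WT clone 1 or 3 or P131S clone 24 or 63, up to an adjusted p of 0.163.

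Sqle, squalene epoxidase, had RNA at 111, 118 and 106 CPM in WT, 132, 142 and 149.96 in P131S and 117, 112 and 154 in H137Y. P131S stood above WT (log2 change 0.34 ± 0.096, adjusted p = 0.0067), and 2 of 3 H137Y clones lay within the WT range (0.19 ± 0.096, adjusted p = 0.111). Its footprints were 146, 123 and 107 CPM in WT, 92.2, 97.9 and 127 in P131S and 88.8, 129 and 106 in H137Y, and overlapped with WT in both.

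The remaining sterol enzymes were called less often. Cyp51, the sterol demethylase, changed by 0.31 ± 0.12 (adjusted p = 0.0499) in P131S RNA and by 0.41 ± 0.13 (adjusted p = 0.0415) in H137Y footprints. Dhcr7, the last reductase of the route, changed by 0.28 ± 0.099 (adjusted p = 0.0256) in P131S RNA, where 1 clone lay in the WT range. Fdft1, squalene synthase, which overlaps Ctsb and had fractional footprint counts in all 24 libraries, changed by 0.59 ± 0.15 (adjusted p = 0.0142) in H137Y footprints. Tm7sf2, a sterol reductase that overlaps Vps51, fell to 0.783, 0.931 and 0.902 CPM in P131S footprints from 2.35, 1.64 and 2.73 CPM in WT (log2 change -1.36 ± 0.38, adjusted p = 0.0186), from few reads in each library. All 5 of these calls failed in 1 or more alternatives, and the largest adjusted p was 0.168 and 0.17 for Cyp51, 0.161 for Dhcr7, 0.0676 for Fdft1 and 0.167 for Tm7sf2. Lss, lanosterol synthase, was not called by edgeR as fitted here and ranged from -0.18 to 0.39. Its H137Y footprint change was called by DESeq2 and with RLE size factors (adjusted p = 0.0175 and 0.0375), and its P131S footprint change without P131S clone 20 (0.0111). Msmo1 RNA leaned the other way, at 86.0, 93.9 and 87.9 CPM in WT. It was 61.0, 84.0 and 80.7 CPM in P131S, all below WT, and 63.1, 63.4 and 88.0 in H137Y. Msmo1 was not called by edgeR in either mutant as fitted here, but was called lower in H137Y RNA without clone 6 (adjusted p = 0.00551).

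In the mevalonate pathway 1 of 7 genes, Idi1, rose in RNA in each Rps15 mutant, and in footprints 0 were called in P131S and 2 rose in H137Y. The median log2 change was 0.12 and 0.09 in RNA and 0.13 and 0.34 in footprints. Idi1 is isopentenyl diphosphate isomerase, the enzyme that interconverts the isoprene building blocks, and lies at chr13:8885606-8892396 with no overlapping annotated gene. Idi1 RNA was 151, 162 and 145 CPM in WT, 289, 197 and 219 in P131S and 219.8, 247 and 226 in H137Y. RNA rose in both mutants without overlap (log2 change 0.62 ± 0.13, adjusted p = 0.000543 in P131S and log2 change 0.60 ± 0.13, adjusted p = 0.00097 in H137Y). Idi1 footprints were 56.5, 53.98 and 43.5 CPM in WT, 23.2, 33.9 and 35.2 in P131S and 52.4, 77.2 and 65.7 in H137Y. The P131S footprints were below all WT clones, at -0.74 ± 0.29 (adjusted p = 0.0872), and 1 of the H137Y clones lay in the WT range and the others above it, at 0.34 ± 0.29 (adjusted p = 0.512). In the edgeR fit of the 2 genotypes alone the P131S footprint fall was called (adjusted p = 0.0314).

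The log2 ratio of Idi1 footprints to RNA was -1.42, -1.58 and -1.73 in WT, -3.64, -2.54 and -2.64 in P131S and -2.07, -1.68 and -1.78 in H137Y. P131S was below every other clone of the 24, and clone 20 was the lowest. The difference in translational efficiency, tested as the interaction of assay and genotype, was -1.38 ± 0.33 (adjusted p = 0.0118) in P131S, where 2.26% of all genes were called lower and 0.881% higher. Without P131S clone 20 or WT clone 1 the call was lost, with an adjusted p of up to 0.163, and the log2 difference stayed between -1.58 and -1.02 over the alternatives. Idi1 counts were fractional in most libraries of both assays, and how reads shared between genes were divided is not given in the sources used here.

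**Figure D3:**
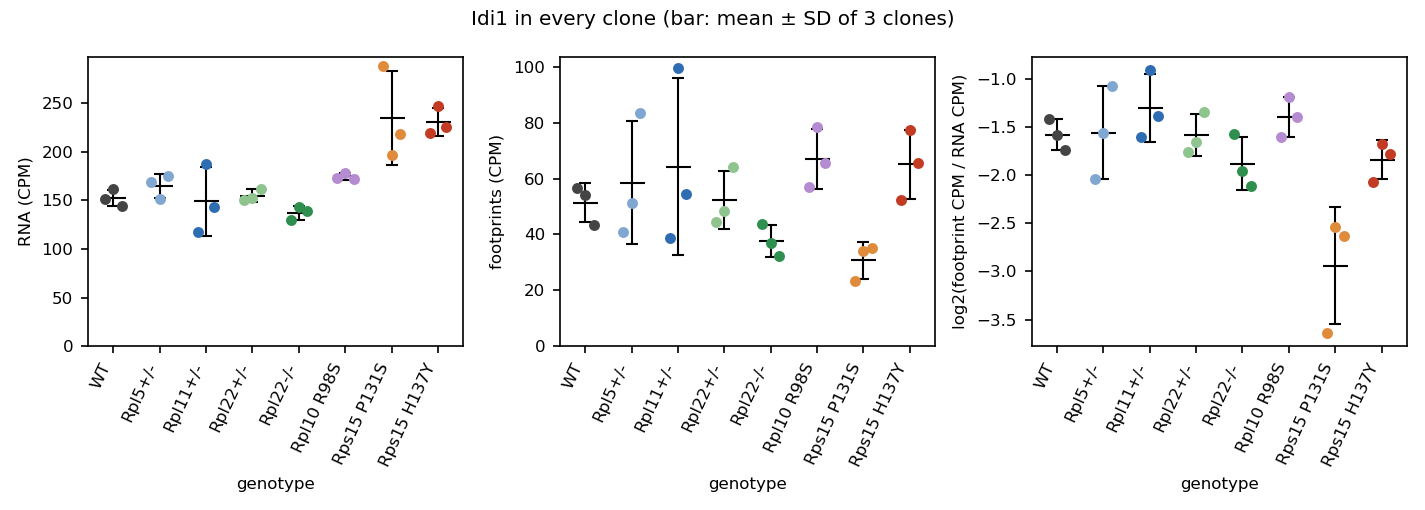
Idi1 in every clone of the 8 genotypes: RNA in CPM (left), footprints in CPM (middle) and the log2 ratio of footprints to RNA (right), with bars for the mean ± SD of 3 clones. Rps15 P131S is above WT in RNA and below it in footprints, and its 3 ratios, -3.64 to -2.54, are the lowest of all.

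RNA and footprint libraries of one clone belong together by their labels, and a fit with the clone as replicate block gave more calls in translational efficiency than the fit without it. In P131S 4 members were called in place of 1, with Idi1 at -1.38 ± 0.27 (adjusted p = 0.00414), Insig1 at -0.82 ± 0.16 (adjusted p = 0.0025) and Sqle at -0.61 ± 0.15 (adjusted p = 0.0214), all lower, and Hmgcs1 at 0.40 ± 0.11 (adjusted p = 0.0384), higher. In the fit of per-clone ratios the P131S calls of Idi1, Insig1 and Sqle were made too and that of Hmgcs1 was not. In H137Y 1 member was called in place of 0, Hmgcs1 at 0.56 ± 0.11 (adjusted p = 0.00491). Calls rose over all genes too. Of 16573 genes the block fit called 806 in P131S and 635 in H137Y, and the per-clone ratios called 826 and 765. Without the block, 374 genes were called lower and 146 higher in P131S, and 457 were called in H137Y. The log2 ratios of Hmgcs1 were 0.42, 0.23 and 0.34 in WT, 0.59, 0.76 and 0.89 in P131S and 0.87, 1.09 and 0.77 in H137Y, so that both mutants lay above WT. Those of Insig1 were -2.27, -2.54 and -2.20 in WT and -3.39, -3.04 and -2.99 in P131S, with every P131S clone below WT. Insig1 footprint counts were fractional in 21 of 24 libraries, so some of these reads may be shared with other genes. Without the block the values were -0.79 ± 0.27 (adjusted p = 0.0978) for Insig1 and -0.60 ± 0.19 (adjusted p = 0.0766) for Sqle in P131S, and for Hmgcs1 0.42 ± 0.26 (adjusted p = 0.501) in P131S and 0.57 ± 0.26 (adjusted p = 0.287) in H137Y.

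Hmgcs1, the cytosolic HMG-CoA synthase, also rose in H137Y footprints. They were 149.6, 143 and 142 CPM in WT, 159, 221 and 251 in P131S and 212, 263 and 218 in H137Y. Both mutants stood above WT, and the change was called in H137Y (log2 change 0.67 ± 0.20, adjusted p = 0.0287) and not in P131S (0.54 ± 0.19, adjusted p = 0.0658). The P131S footprint change was called by DESeq2 (adjusted p = 0.0274) and by edgeR without P131S clone 20 (0.0248). Its RNA was 112, 122 and 112 CPM in WT, 106, 130.2 and 135 in P131S and 116, 124 and 128 in H137Y and overlapped with WT in both. The H137Y footprint call was lost without any 1 of the WT clones or without H137Y clone 2, up to an adjusted p of 0.107.

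Pmvk, phosphomevalonate kinase, had footprints at 29.7, 25.7 and 31.6 CPM in WT, 28.2, 42.4 and 39.9 in P131S and 42.5, 42.5 and 51.001 in H137Y. H137Y was above WT (log2 change 0.65 ± 0.18, adjusted p = 0.0219), a call lost without WT clone 1 or 2 or H137Y clone 6 (adjusted p up to 0.0949). Pmvk RNA was 28.7, 31.3 and 30.6 CPM in WT and 29.9, 30.998 and 37.2 in H137Y, which overlapped. Acat2, the cytosolic thiolase at the head of the pathway, was called in Rpl11+/- and Rpl22-/- and is described with them. Mvk, Mvd and Fdps, which phosphorylate mevalonate, decarboxylate its product and make farnesyl diphosphate, were not called by edgeR as fitted here, with log2 changes from -0.37 to 0.41, -0.20 to 0.41 and -0.28 to 0.25. In RNA, Mvd and Fdps were called higher in Rpl10 R98S when fitted with WT alone (adjusted p = 0.000497 and 0.0354) and in P131S without clone 20 (0.0385 and 0.0239), and Mvk was called lower in H137Y without clone 6 (0.032).

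Of the 6 regulator and transport genes, 2 rose and 2 fell in RNA in P131S and 2 rose and 1 fell in H137Y, with median log2 changes of 0.13 and 0.15. Scap rose and Insig2 fell in both. Scap RNA was 57.1, 49.9 and 48.8 CPM in WT, 89.5, 73.5 and 75.4 in P131S and 90.3, 84.97 and 104 in H137Y. It rose without overlap (log2 change 0.61 ± 0.083, adjusted p = 6.44e-06 in P131S and log2 change 0.84 ± 0.083, adjusted p = 1.5e-07 in H137Y). Insig2 RNA was 36.5, 40.1 and 38.6 CPM in WT, 14.9, 26.4 and 23.3 in P131S and 19.7, 17.1 and 22.6 in H137Y. Insig2, one of the 2 proteins that retain SCAP, fell without overlap in both (log2 change -0.84 ± 0.14, adjusted p = 8.33e-05 and log2 change -0.95 ± 0.14, adjusted p = 2.74e-05). Insig2 footprints, at 8.38, 8.30 and 7.95 CPM in WT, 2.04, 3.04 and 4.25 in P131S and 1.76, 5.18 and 4.66 in H137Y, were below WT in all 6 clones. The footprint fall was called in P131S (-1.40 ± 0.42, adjusted p = 0.0269) and was -1.09 ± 0.42 (adjusted p = 0.103) in H137Y. The P131S footprint call was lost without any 1 of the WT clones or without P131S clone 20 or 24 (adjusted p up to 0.135). Scap footprints were 15.4, 15.7 and 21.3 CPM in WT, 21.5, 21.998 and 17.7 in P131S and 25.8, 25.8 and 27.6 in H137Y, with no call by edgeR (0.23 ± 0.21, adjusted p = 0.529 and 0.60 ± 0.21, adjusted p = 0.0706). The H137Y footprint change was called by DESeq2 and limma voom (adjusted p = 0.0325 and 0.0439) and by edgeR without WT clone 3 (0.0494).

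Insig1, the other retention protein and itself a target of SREBP, was called in 5 of the 7 mutant genotypes in RNA, always higher. Insig1 RNA was 47.4, 51.3 and 52.3 CPM in WT, 71.03, 108 and 106 in P131S and 69.3, 78.7 and 66.7 in H137Y. In Rpl11+/- it was 84.5, 65.96 and 56.5 CPM, in Rpl22+/- 69.8, 81.7 and 79.1 CPM and in Rpl22-/- 71.3, 77.8 and 77.8 CPM. Every clone of these 5 genotypes was above every WT clone, and all 5 comparisons use the same 3 WT clones. The changes were 0.91 ± 0.13 (adjusted p = 1.76e-05) in P131S and 0.51 ± 0.13 (adjusted p = 0.0045) in H137Y. They were 0.45 ± 0.13 (adjusted p = 0.0308) in the Rpl11+/- clones, 0.61 ± 0.13 (adjusted p = 0.0102) in Rpl22+/- and 0.59 ± 0.13 (adjusted p = 0.0115) in Rpl22-/-. In Rpl5+/- the clones were at 69.9, 62.7 and 64.8 CPM and in Rpl10 R98S at 57.01, 60.6 and 58.8 CPM, also above WT, with 0.39 ± 0.13 (adjusted p = 0.161) and 0.22 ± 0.13 (adjusted p = 0.286). When fitted with WT alone, edgeR called Insig1 RNA higher in both (adjusted p = 0.000915 and 0.00566). Insig1 footprints were 9.82, 8.83 and 11.4 CPM in WT, 6.80, 13.04 and 13.3 in P131S and 11.999, 11.3 and 10.4 in H137Y, and edgeR called no genotype. The Rpl22-/- call was lost without WT clone 1 (adjusted p 0.0591), the Rpl22+/- call without WT clone 1 or Rpl22+/- clone 16 (up to 0.0622), and the Rpl11+/- call without any 1 of the WT clones or clone 22 or 406 (up to 0.218).

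Stard4, which carries cholesterol between membranes, fell in RNA in 3 genotypes. Its RNA was 201, 213 and 202 CPM in WT, 155, 174 and 171 in Rpl22+/-, 145, 173 and 152 in Rpl22-/- and 157, 178 and 162 in P131S. All 9 mutant clones were below all 3 WT clones, with -0.30 ± 0.081 (adjusted p = 0.0391), -0.39 ± 0.082 (adjusted p = 0.00592) and -0.31 ± 0.081 (adjusted p = 0.00351). The Rpl22+/- call was lost without any 1 of its own or the WT clones (adjusted p up to 0.186), while the calls in Rpl22-/- and P131S were kept in every alternative. H137Y clones were at 187, 202 and 239 CPM, around the WT level. Srebf1 and Srebf2, the SREBP genes themselves, were not called by edgeR as fitted here, with log2 changes from -0.43 to 0.34 and from -0.45 to 0.17. Srebf1 was called in Rpl10 R98S footprints by DESeq2 (adjusted p = 0.0496), in Rpl5+/- RNA when fitted with WT alone (0.0123) and in P131S RNA without clone 20 (0.00842). Srebf2 RNA was called in P131S without clone 20 (0.0214) and in H137Y without clone 2 (0.0202).

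**Figure D4:**
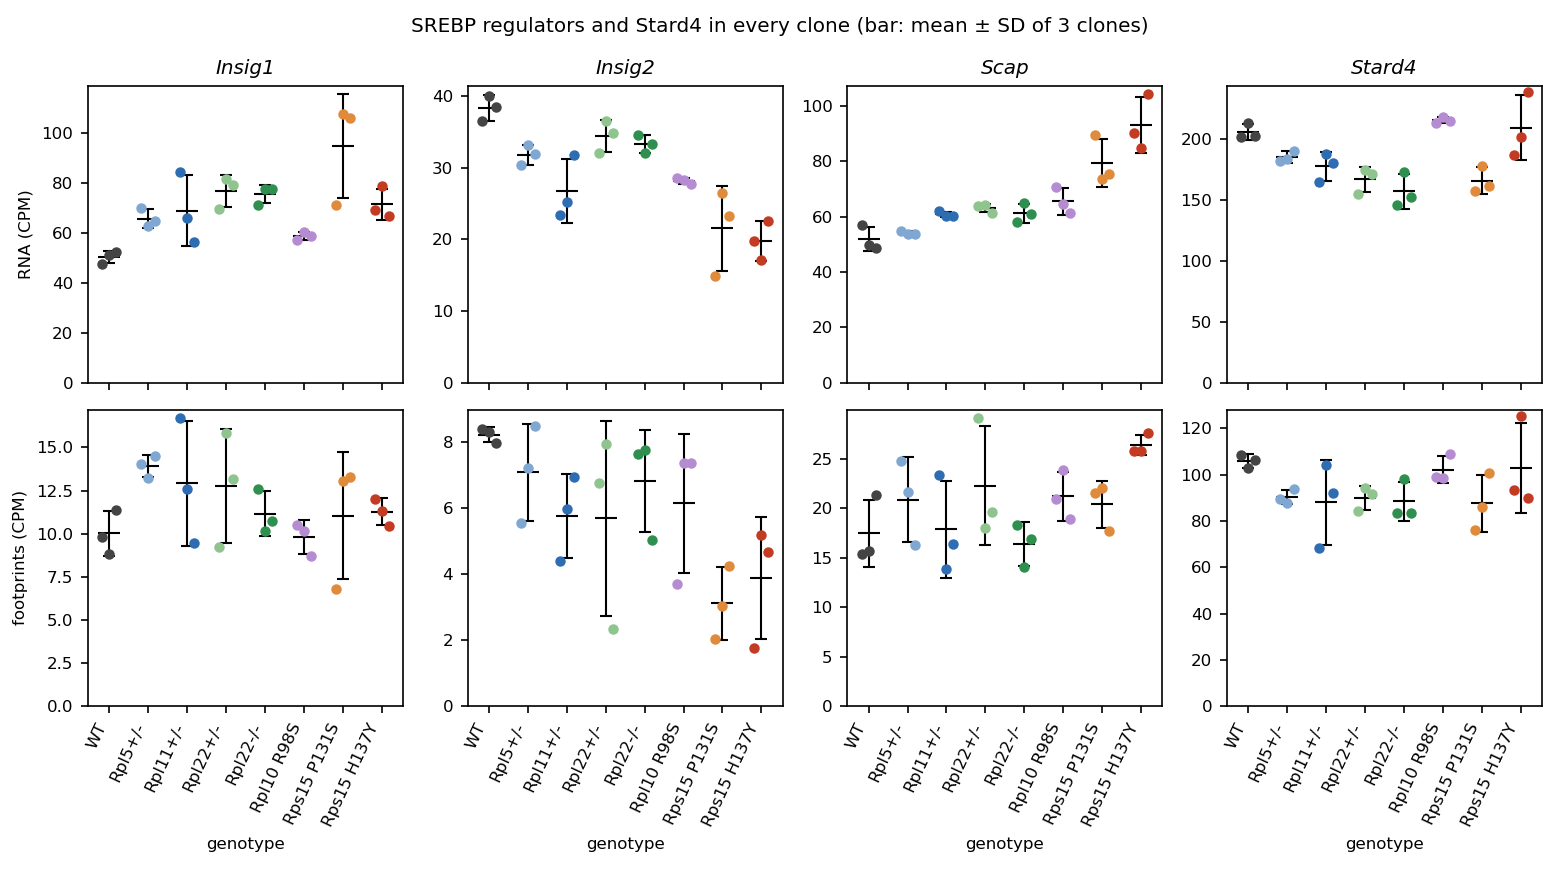
RNA (top) and footprints (bottom) in CPM of the regulator and sterol transport genes that were called at least once, each point 1 clone and each bar the mean ± SD of 3 clones. Scap RNA is above and Insig2 RNA below WT in both Rps15 genotypes, and no mutant point of Insig1 RNA lies below the WT points.

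At the footprint level edgeR called members in the Rps15 mutants, and all 30 members were tested. In P131S 5 rose, against 8.41% of all genes, and 2 fell, against 8.28%. In H137Y 10 rose, against 5.22% of all genes, and 0 fell, against 6.44%. The median log2 change of the members was 0.21 in P131S and 0.30 in H137Y, beside -0.04 and 0.00 over all genes. Of the members called in RNA, 6 were also called in footprints in P131S and 5 in H137Y, all in the same direction. The share of all genes called at both levels was not computed. Called or not, 22 of 29 members in P131S and 23 of 29 in H137Y changed in the same direction at both levels. Over 12072 genes that share was 73.1% and 71.3%. These counts leaned on single clones: in P131S the count was 3, 4 and 2 without WT clone 1, 2 and 3 and 4 without P131S clone 24, and in H137Y it was 5, 3 and 4 without WT clone 1, 2 and 3, 6 without H137Y clone 16 and 4 without H137Y clone 2.

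In the other 5 genotypes edgeR called 0 of 30 members in footprints. Of all genes, 0.0123% were called there in Rpl5+/-, 0.074% in Rpl11+/-, 0.253% for Rpl22+/-, 0.105% for Rpl22-/- and 1.62% for Rpl10 R98S. At an unadjusted p under 0.05 the members counted 2, 5, 3, 0 and 4 in the same order. DESeq2 called 0, 0, 1, 0 and 1, and limma voom 0, 0, 0, 0 and 0. In translational efficiency edgeR called 0 members in every genotype but P131S. The share of all genes called was 0% for Rpl5+/- and Rpl11+/-, 0.00603% for Rpl22+/-, 0.0121% for Rpl22-/-, 0.217% in Rpl10 R98S and 2.76% in H137Y. The counts at an unadjusted p under 0.05 were 0, 1, 1, 1, 1 and 3, and DESeq2 called 0, 0, 0, 0, 0 and 0 and limma voom 0, 0, 0, 0, 0 and 0. With the clone block edgeR called Hmgcs1 in H137Y, as given above. It also did so in the fit of the 2 genotypes alone (adjusted p = 0.0424), where 275 of 14672 genes were called.

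The Rps15 mutants were also compared directly. In RNA 1 member was higher in P131S than in H137Y, against 12.6% of all genes, and 2 were lower, against 12.6%. Insig1 was the one that was higher (0.41 ± 0.13, adjusted p = 0.0275), and the lower ones were Scap (-0.23 ± 0.082, adjusted p = 0.0437) and Stard4 (-0.34 ± 0.081, adjusted p = 0.00448). For Stard4 the P131S clones were all below the H137Y clones, while for Insig1 and Scap 1 P131S clone, clone 20, lay inside the H137Y range. The Insig1 and Scap calls were each lost without P131S clone 24 or 63 or H137Y clone 16 or 6, up to an adjusted p of 0.21 and 0.25. In footprints 0 members were higher (2.23% of all genes) and 1, Idi1, was lower (1.94% of all genes), at -1.08 ± 0.29 (adjusted p = 0.0378), with no P131S clone reaching the lowest H137Y clone. That call was lost without any 1 of the P131S clones or without H137Y clone 2 or 6 (adjusted p up to 0.177). In translational efficiency Idi1 differed by -1.11 ± 0.33 (adjusted p = 0.11) and edgeR called 0 members, where 0.676% of all genes were called. At an unadjusted p under 0.05 there were 2, and DESeq2 called 1 and limma voom 0.

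In Rpl11+/- the RNA of several sterol synthesis enzymes and of Insig2 was lower, and the count depended on single clones. Hmgcs1 RNA was 112, 122 and 112 CPM in WT and 51.2, 93.7 and 95.2 in Rpl11+/-. All 3 clones were below WT (log2 change -0.53 ± 0.15, adjusted p = 0.0305). Acat2 RNA counts were fractional in all 24 libraries. Acat2 RNA was 70.7, 74.3 and 70.1 CPM in WT and 48.99, 68.2 and 54.3 in Rpl11+/-, again all below (log2 change -0.33 ± 0.11, adjusted p = 0.0473). The other members that fell were Fdft1 (-0.45 ± 0.14, adjusted p = 0.0485), Msmo1, a sterol methyl oxidase (-0.45 ± 0.14, adjusted p = 0.037), Sc5d, a sterol desaturase (-0.32 ± 0.10, adjusted p = 0.0463), and Insig2 (-0.52 ± 0.14, adjusted p = 0.0212). Without clone 22, or without WT clone 2 or 3, the count of members called in Rpl11+/- was 0 in place of 7, and it was 2 without WT clone 1 and 3 without clone 406. Summed over the 7 mevalonate genes, RNA was 373, 569.6 and 516 CPM in Rpl11+/- clones 22, 406 and 414 and 567, 599 and 556 in WT. The median SD of a member between clones, on the log2 scale, was 0.22 in Rpl11+/- and 0.069 in WT.

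**Figure D5:**
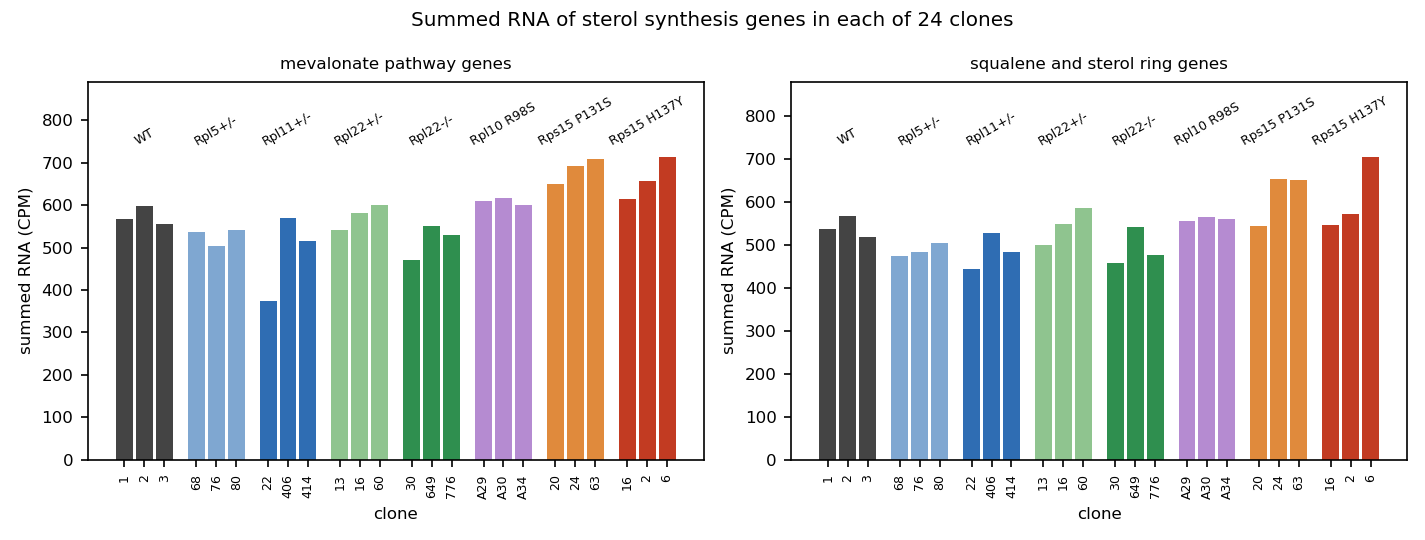
Summed RNA in CPM of the mevalonate genes (left) and of the squalene and sterol ring genes (right), 1 bar per clone, coloured by genotype. Rpl11+/- clone 22 has the shortest bar in both panels, at 373 and 443 CPM, and the tallest bars belong to Rps15 H137Y clone 6, at 713 and 705 CPM.

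In Rpl22-/- Acat2 fell too, at 46.7, 59.3 and 61.1 CPM (log2 change -0.37 ± 0.11, adjusted p = 0.0459), a call lost without any 1 of the WT clones or without Rpl22-/- clone 30 or 649 (adjusted p up to 0.265). The Insig1 and Stard4 calls in Rpl22-/- were kept without clone 30. In Rpl10 R98S the members called besides Elovl6 were Scap, at 70.9, 64.5 and 61.3 CPM (log2 change 0.34 ± 0.083, adjusted p = 0.0105), and Insig2, at 28.6, 28.4 and 27.7 CPM (log2 change -0.44 ± 0.14, adjusted p = 0.0428). Both groups lay outside the WT range. The Insig2 call was lost whichever clone was left out (adjusted p up to 0.122), and the Scap call was lost without WT clone 2 or 3 or clone A29 (up to 0.0697).

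Genes next to these in the same pathways moved in mixed directions, and the backgrounds above apply to them too. Of 11 genes that process SREBP, sense sterols or complete the route, 5 rose and 1 fell in P131S RNA and 4 rose and 1 fell in H137Y RNA, with median log2 changes of 0.19 and 0.08. Rnf145, a sterol-responsive ubiquitin ligase, rose in both (0.68 ± 0.10, adjusted p = 2.06e-05 and 0.51 ± 0.10, adjusted p = 0.000498), and Mbtps2, a protease that cleaves SREBP, fell in H137Y (-0.51 ± 0.098, adjusted p = 0.000304). Of 14 tested genes of sterol uptake, storage and efflux, 4 rose and 3 fell in P131S and 5 rose and 2 fell in H137Y, with medians of -0.06 and 0.31. Abca1, which exports cholesterol, had mean RNA of 7.81 ± 1.08 CPM in WT, 28.3 ± 2.43 in P131S and 46.1 ± 6.97 in H137Y (SD, n = 3 clones). Abca1 rose by 1.86 ± 0.16 (adjusted p = 6.71e-08) and 2.56 ± 0.17 (adjusted p = 9.22e-10) in edgeR, and its footprints by 1.27 ± 0.20 (adjusted p = 0.000262) and 1.66 ± 0.20 (adjusted p = 3.23e-05).

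Of 9 genes of the isoprenoid branch, 4 rose and 1 fell in P131S RNA and 2 rose in H137Y RNA, with medians of 0.13 and 0.06. Pdss1, which makes the side chain of coenzyme Q, rose in P131S (0.74 ± 0.13, adjusted p = 7.8e-05), as did Nus1, of dolichol synthesis (0.37 ± 0.07, adjusted p = 0.000216), while Pggt1b, of protein geranylgeranylation, fell (-0.39 ± 0.078, adjusted p = 0.000335). Of 20 genes of fatty acid elongation, desaturation and activation, 5 rose and 6 fell in P131S and 2 rose and 5 fell in H137Y, with medians of 0.01 and -0.06. Oxsm, of mitochondrial fatty acid synthesis, fell in both (-0.78 ± 0.10, adjusted p = 4.92e-06 and -0.84 ± 0.10, adjusted p = 2.43e-06). Acsl5, an acyl-CoA synthetase, rose in both (0.49 ± 0.071, adjusted p = 1.48e-05 and 0.32 ± 0.071, adjusted p = 0.00116), and Fads1, a desaturase of polyunsaturated fatty acids, fell in P131S (-0.64 ± 0.12, adjusted p = 0.000148).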

How the data were processed

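RNA and ribosome footprints were measured in 24 Ba/F3 clones, 3 for each of 8 genotypes. The authors deposited estimated counts per gene. Per the submitters' processing notes, the tools were STAR 2.6.1d, Salmon 1.4.0 and DESeq2 1.30 with GRCm38, and the annotation, the counted feature and the treatment of reads that match several genes are not given in the sources used here. The deposited expected counts were rounded to whole numbers. A gene was tested when it reached the equivalent of 10 counts in the library of median size in at least 3 libraries and 15 counts in all, which left 12814 genes in RNA, 16214 in footprints and 16573 for translational efficiency. CPM used TMM-scaled library sizes.

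The main test was edgeR 4.0.16 (quasi-likelihood, robust, R 4.3.3) on all 24 libraries of an assay with 8 genotype means, with Benjamini-Hochberg adjustment over all genes and a threshold of 0.05. The SE is the log2 change divided by the square root of F. A difference in translational efficiency was fitted over 48 libraries as the assay-by-genotype term, without a clone term. Footprint and RNA libraries of the same clone deviated together (correlations from 0.150 to 0.548 over 12072 genes for all 24 clones), so the fit with clone as block is given where it changes a call. The scripts were tested on simulated data with known changes: the sizes were recovered with little bias and few unchanged genes were called, but the share of changed genes recovered missed the level first set, and that criterion was dropped. Alternatives were RLE size factors, no filter, DESeq2 1.42.0, limma 3.58.1 voom, the 2 genotypes alone, each clone left out, per-clone ratios with a pseudocount of 0.5 CPM, and a refit without Rpl22+/- clone 60, chosen after seeing the data. Members and gene lists were chosen with earlier results of these data known. Values per clone are given for up to 4 genes of each role with the lowest adjusted p, and up to 3 genes of each related list are named. Some related genes that rank first are not reported here. Protein sequences were not used here, and promoter windows came from RefSeq (GRCm38.p6).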

Additional observations from a re-analysis of the deposited data

Results flagged for a closer look

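In 4 members the effects of the Rps15 mutations differed from each other by the direct test of P131S against H137Y in edgeR. These were 3 of 29 members tested in RNA, where 12.6% of all genes were called higher and 12.6% lower. In footprints it was 1 of 30 members, where 2.23% of all genes were called higher and 1.94% lower. In RNA the log2 difference was 0.41 ± 0.13 (adjusted p = 0.0275) for Insig1, -0.23 ± 0.082 (adjusted p = 0.0437) for Scap and -0.34 ± 0.081 (adjusted p = 0.00448) for Stard4. In footprints it was -1.08 ± 0.29 (adjusted p = 0.0378) for Idi1. Over the alternatives the highest adjusted p was 0.21 for Insig1, 0.25 for Scap, 0.109 for Stard4 and 0.177 for Idi1, so that none of the 4 calls held in every alternative run. The Stard4 call was lost in 1 of them, the fit of the 2 genotypes alone.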

How the results depend on the processing

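Of 744 values of the 62 called changes under alternatives, 553 kept the call, 191 lost it and 0 reversed, and 24 calls were kept in every alternative run. With clone as replicate block, the members called in translational efficiency were 4 in P131S (1 without it) and 1 in H137Y (0 without it), and the block changed no other count. Per-clone ratios gave 3 and 1. Of all 16573 genes the block fit called 806 in P131S and 635 in H137Y, and the per-clone ratios 826 and 765. DESeq2 called 2 members in translational efficiency in P131S and 1 in P131S against H137Y (0 by edgeR), 1 in Rpl5+/- RNA, 1 in footprints of Rpl22+/- and of Rpl10 R98S, and 3 in footprints of P131S against H137Y. Of 16549 genes it called 909 and 307 in these translational efficiency tests, and 387 of 12812 in Rpl5+/- RNA. In footprints it called 406, 728 and 1293 of 16170 in the same order. Without the filter the count was 1 for Rpl11+/- and Rpl22+/- RNA, 4 and 6 for P131S and H137Y footprints and 0 for their direct comparison. Of all genes, 1066 and 342 of 22437 were then called in RNA, and 2105, 1545 and 649 of 38392 in footprints. With the 2 genotypes alone it was 11 in Rpl5+/- RNA, 2 in Rpl11+/-, 5 in Rpl22-/-, 10 in Rpl10 R98S and 0 in P131S against H137Y, 6 in H137Y footprints, 0 in footprints of P131S against H137Y and 1 in H137Y translational efficiency. Of all genes these fits called 1867 of 11815 in Rpl5+/- RNA, 855 of 12010 in Rpl11+/-, 1438 of 11925 in Rpl22-/- and 4218 of 11919 in Rpl10 R98S. For P131S against H137Y they called 378 of 12070 in RNA and 34 of 13997 in footprints. For H137Y they called 1417 of 14109 in footprints and 275 of 14672 in translational efficiency. Calls over all genes thus also fell in the direct comparison, where the main fit called 12.6% higher and 12.6% lower in RNA. The refit without Rpl22+/- clone 60, chosen after seeing the data, gave 2 in footprints of P131S against H137Y, where 819 of 16178 genes were called. Leaving out 1 clone at a time gave, in RNA, 0 to 6 calls in Rpl11+/-, 0 to 1 in Rpl22+/- (0 without clone 16), 1 to 3 in Rpl22-/- (1 without WT clone 1), 1 to 2 in Rpl10 R98S (1 without WT clone 2 or 3 or clone A29), 11 to 20 in P131S, 9 to 12 in H137Y and 1 to 3 in P131S against H137Y (1 without P131S clone 24 or 63 or H137Y clone 16). In footprints it gave 0 to 1 in Rpl22+/- (1 without clone 16), 2 to 9 in P131S, 3 to 8 in H137Y and 0 to 2 in their direct comparison, and in translational efficiency 0 to 1 in P131S (0 without WT clone 1 or P131S clone 20). The cause of these differences was not tested. No scaling moved the median of all genes by over 0.1 on the log2 scale. With 3 clones a group and few reads for Tm7sf2 and Insig2 footprints, changes below the spread between clones were not detectable.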
